A study of Mus musculus with 6 samples.

Results

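The circadian clock genes analysed here were Per1, Per2, Per3, Cry1, Cry2, Arntl, Clock, Dbp, Nr1d1 and Nr1d2, taken by gene name from the deposited transcript table. They made up 10 of its 47729 genes and 30 of its 115220 transcripts. FPKM counts the fragments of a transcript per kilobase of its length and per mapped fragment of its library, and the values of a gene's transcripts were added up to a gene total. All 10 gene totals and 16 of the 30 transcripts reached the mean of 1 FPKM over the libraries that was required for a test. Of the other 14 transcripts, 13 were above 0 in at least 1 library.

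Ribosome-associated RNA was sequenced from mPFC D2 neurons in 6 libraries, 3 Ctrl and 3 Gsk3sKO in mPFC D2 (called Gsk3sKO here), to ask how loss of GSK3β changes the translatome. Both groups came from adult male D2Cre/LSL-Flag-Cas9/RiboTag mice, labelled C57BL/6, that were 2.5 to 3 months old at injection. In these mice the D2Cre transgene switches on Cas9 and a hemagglutinin-tagged Rpl22 ribosomal protein, so the D2Cre transgene decides which cells are cut and which ribosomes are pulled down. Ctrl mice received AAV GFP, for which no sgRNA is named, and Gsk3sKO mice received AAV Gsk3sgRNA/GFP, which carries the Gsk3b sgRNA, and the mPFC was dissected 3 weeks later. D2 neurons that the virus did not reach keep Gsk3b but still contribute tagged ribosomes. The mice lived under 12 h of light and 12 h of dark, and the hour of dissection is not given in the sources used here, so the hour and the group cannot be told apart. Whether each library stems from its own mice is not stated, so p-values reflect spread among libraries, possibly only technical spread.

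The mammalian clock is a feedback loop of transcription. CLOCK and BMAL1, the product of Arntl, bind E-boxes and switch on the Per and Cry genes, whose products return to the nucleus and repress CLOCK and BMAL1. The same activators drive Dbp, a transcription factor that binds D-boxes, and Nr1d1 and Nr1d2, which encode the REV-ERB receptors that repress Arntl. Clock RNAs cycle over the day in forebrain tissue, and Per1 is also induced by neuronal activity through cAMP response elements. GSK3β is known to phosphorylate several clock proteins, REV-ERBα, CRY2, CLOCK, BMAL1 and PER2 among them, and RNA levels do not measure that step.

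Sequences are shown for the promoters in which the letters of these elements were found, since clock factors act through such elements in the loop described above. RefSeq promoters of GRCm38.p6, from 250 bases before to 50 bases after a start site, were found for 9 of the 10 members, in 13 windows. Per2 had no entry. The E-box CACGTG, which reads the same on both strands, was in the windows of Per1 and Cry1, 2 of the 13, and in 7.15% of all 32851 promoter windows. The D-box TTATGTAA, searched on both strands, occurred 2 times in the Per3 window, from base -205 and from base -158, and in 0.938% of all windows. The shared ends TAGGTCA and TGGGTCA of the element bound by REV-ERB and ROR receptors were searched on both strands, and 1 match was found, in Arntl from base 31 after a start site, with 6.45% of all windows holding one. The cAMP response element TGACGTCA was in 0 of the 13 member windows and in 1.79% of all windows. None of these motifs overlapped another. A match is a description of the letters and not a binding site. In the lines below, capitals mark the motif and each sequence runs 5′ to 3′ on the strand of the gene.
Per1, E-box, chr11:69098731-69098840, plus strand: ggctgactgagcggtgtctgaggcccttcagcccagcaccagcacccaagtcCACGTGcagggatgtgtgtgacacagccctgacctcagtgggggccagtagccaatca
Cry1, E-box, chr10:85185070-85185179, minus strand: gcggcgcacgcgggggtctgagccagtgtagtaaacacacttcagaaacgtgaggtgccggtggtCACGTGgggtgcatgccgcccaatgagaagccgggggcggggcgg
Per3, D-boxes, chr4:151044789-151044898, minus strand: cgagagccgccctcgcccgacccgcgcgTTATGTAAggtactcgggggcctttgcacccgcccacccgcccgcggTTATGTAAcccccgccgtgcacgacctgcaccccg
Arntl, REV-ERB and ROR element, chr7:113207531-113207557, plus strand: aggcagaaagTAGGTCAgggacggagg

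Per1, Dbp and Cry2 were lower in Gsk3sKO, with every Gsk3sKO library below every Ctrl library, and the other 7 members did not pass the test. Gene totals were compared with limma on log2(FPKM + 1). At an unadjusted p under 0.05, 3 of the 10 members were called, all 3 lower, where 5.2% of the 12874 tested gene totals were called lower and 6.56% were called in either direction. With Benjamini-Hochberg adjustment over all gene totals, 0 of the 10 stayed under 0.05 in limma, as did 0.0466% of all gene totals. The groups did not overlap for 3 members, all 3 lower, where 12% of all gene totals did not overlap and 8.3% did so with Gsk3sKO lower. The log2 difference, Gsk3sKO minus Ctrl, was below 0 for 9 of the 10 members and for 58.9% of all gene totals. Its median was -0.18 over the members and -0.06 over all gene totals. Among the gene totals called in the whole table, 669 were lower and 175 higher, and when libraries were scaled by median ratios instead, the lower calls numbered 502 and the higher calls 307. Under that rescaling 1 member, Per1, was called.

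**Figure D1:**
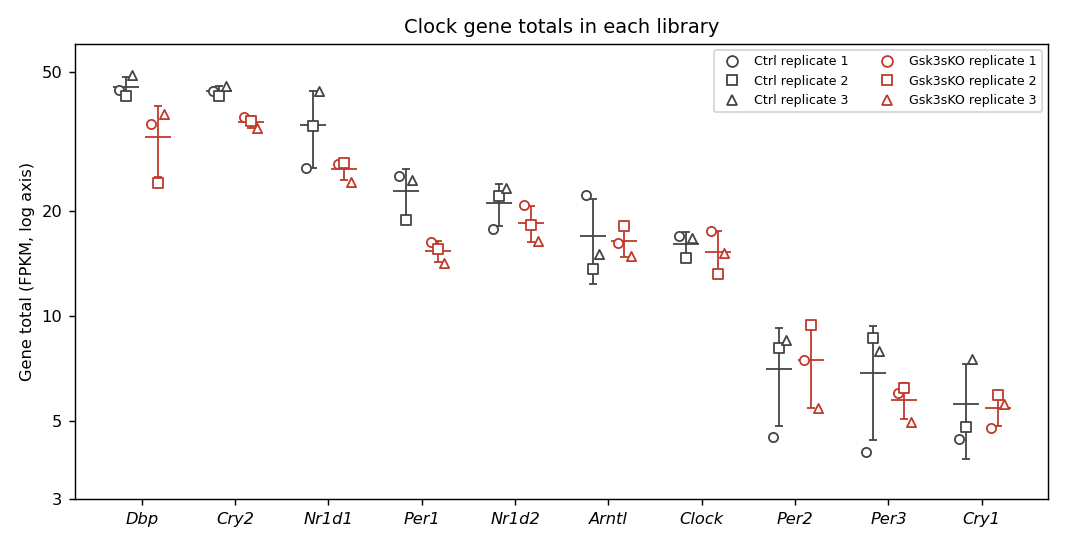
Gene totals of the 10 clock genes in FPKM on a log axis, ordered by the Ctrl mean, with 1 symbol per library (Ctrl grey, Gsk3sKO red) and the mean ± SD of each group (n = 3). The 3 Gsk3sKO symbols lie below the 3 Ctrl symbols for Dbp, Cry2 and Per1, and Ctrl replicate 1 (grey circle) is the lowest symbol for Per2, Per3 and Cry1 and the highest for Arntl.

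All 10 clock genes were detected in every library, over a wide range of levels. Because FPKM is per length, levels can be set side by side between genes. In Ctrl the order of the mean levels was Dbp at 45.2 FPKM, Cry2 at 44.0, Nr1d1 at 35.2, Per1 at 22.9, Nr1d2 at 21.03, Arntl at 16.98, Clock at 16.1, Per2 at 7.05, Per3 at 6.89 and Cry1 at 5.61. Neighbours in this order overlapped between Ctrl libraries except at 2 steps, from Nr1d1 to Per1 and from Clock to Per2, so that 3 tiers were separated. By the mean over all 6 libraries Cry2 stood at percentile 86.5 of all tested gene totals, Dbp at 86.0, Per1 at 72.0, and Per2, Per3 and Cry1 below the middle, at 44.8, 40.8 and 37.1. The spacing of low values put the libraries at about 23.5 to 45.1 M reads, and at these depths a member's gene total rested on roughly 470 reads at the least (Cry1) and 7900 at the most (Cry2).

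Per1, on chromosome 11 from 69095217 to 69109960, encodes a repressor of the loop and was the member with the largest difference. Its gene total was 25.2, 18.9 and 24.5 FPKM in Ctrl and 16.3, 15.6 and 14.2 FPKM in Gsk3sKO. The Gsk3sKO libraries lay close together and below the lowest Ctrl library. The means were 22.9 ± 3.47 FPKM (SD, n = 3) and 15.3 ± 1.06 FPKM (SD, n = 3), a level lower by 32.9%. The log2 difference was -0.54 (standard error 0.17, 95% interval -0.92 to -0.15, unadjusted limma p = 0.0119, adjusted p = 0.671, exact permutation p = 0.1). The permutation tests were 2-sided, and with groups of 3 they cannot go below 0.1. Per1 was called at an unadjusted limma p under 0.05 in each of the 12 alternative settings, with p between 0.00772 and 0.0451 and log2 differences between -0.66 and -0.47.

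Per1 belongs to the genes that neuronal activity induces, and the other immediate early genes were measured beside it. In the list of Fos, Fosb, Junb, Egr1, Egr2, Arc, Npas4, Nr4a1, Ier2 and Dusp1, 10 of 10 log2 differences were below 0, with a median of -0.26, and limma called 0 of 10 at an unadjusted or adjusted p under 0.05. Over all tested gene totals 58.9% were below 0, the median was -0.06, and limma called 6.56% at an unadjusted p under 0.05. Their summed level was 229 to 343 FPKM in Ctrl and 204 to 318 FPKM in Gsk3sKO, so the groups overlapped. By library the sum was 343, 306 and 229 FPKM in Ctrl, where Per1 was at 25.2, 18.9 and 24.5 FPKM, and 318, 217 and 204 FPKM in Gsk3sKO, where Per1 was at 16.3, 15.6 and 14.2 FPKM. The order of the libraries was thus the same for both in Gsk3sKO and not in Ctrl. The part of these genes in the Per1 difference was not tested.

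Per2 and Per3, the other Period repressors, did not differ beyond the spread between libraries. Per2, on chromosome 1, was at 4.51, 8.09 and 8.55 FPKM in the Ctrl libraries and at 7.47, 9.46 and 5.47 FPKM in Gsk3sKO, the only member with a log2 difference above 0 (0.09, 95% interval -0.57 to 0.74, limma p = 0.768, exact permutation p = 0.7). Per3, on chromosome 4, was at 4.07, 8.64 and 7.95 FPKM in the Ctrl libraries and at 6.03, 6.24 and 4.98 FPKM in Gsk3sKO (log2 difference -0.18, 95% interval -0.82 to 0.47, limma p = 0.549, exact permutation p = 0.6). For both genes Ctrl replicate 1 was the lowest of all 6 libraries, and the groups overlapped. For Per3 the log2 difference was -0.47 when Ctrl replicate 1 was left out and -0.0029 when Ctrl replicate 2 was, and it was not called in any of the 12 alternatives. The lower ends of both intervals reach beyond the log2 difference of Per1.

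Cry2, on chromosome 2 from 92403646 to 92434043, encodes a cryptochrome that binds and inhibits the CLOCK and BMAL1 pair. Its gene total was 44.1, 42.5 and 45.4 FPKM in Ctrl and 37.2, 36.2 and 34.5 FPKM in Gsk3sKO. Both groups were tight, and no Gsk3sKO library reached the lowest Ctrl library. The means were 44.0 ± 1.44 FPKM (SD, n = 3) and 35.9 ± 1.33 FPKM (SD, n = 3), lower by 18.4%, with a log2 difference of -0.29 (standard error 0.12, 95% interval -0.57 to -0.0019, unadjusted limma p = 0.0488, adjusted p = 0.755, exact permutation p = 0.1). This call is at the edge of the threshold, and leaving out any 1 of the 6 libraries brought the unadjusted limma p to between 0.0731 and 0.122, while the log2 difference stayed between -0.31 and -0.26. Over all 12 alternative settings Cry2 was called in 4 and not called in 8. The lowest unadjusted p, 0.0021, came with variances that were not moderated across genes. Cry1, its paralog on chromosome 10, was at 4.44, 4.83 and 7.55 FPKM in the Ctrl libraries and at 4.78, 5.95 and 5.62 FPKM in Gsk3sKO, with all 3 Gsk3sKO values inside the Ctrl range. Its log2 difference was -0.01 (95% interval -0.57 to 0.55, limma p = 0.971, exact permutation p = 0.9). Cry1 and Per1, whose promoter windows hold the E-box letters shown above, had log2 differences of -0.01 and -0.54. Cry2 and Dbp, called lower, had no such letters in their windows, which reach only 250 bases before a start site and 50 bases after it. A link between these letters and the differences was not tested.

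Dbp, on chromosome 7 from 45705088 to 45710203, encodes the D-box activator that is read out as a direct output of the loop. Its single listed transcript, ENSMUST00000080885, was at 44.4, 42.6 and 48.8 FPKM in the Ctrl libraries and at 35.4, 24.0 and 37.9 FPKM in Gsk3sKO. Gsk3sKO replicate 2 was far below the other two libraries of its group, which themselves lay below Ctrl. The means were 45.2 ± 3.19 FPKM (SD, n = 3) and 32.4 ± 7.38 FPKM (SD, n = 3), lower by 28.3%. The log2 difference of the gene total was -0.49 (standard error 0.19, 95% interval -0.92 to -0.06, unadjusted limma p = 0.0294, adjusted p = 0.732, exact permutation p = 0.1). Without Gsk3sKO replicate 2 it was -0.30 and no longer called, and the call was also lost without Ctrl replicate 1 (-0.50) and without Ctrl replicate 3 (-0.44), and with variances that were not moderated across genes. Dbp shares 539 of its 2993 exonic bases with Sphk2 on the opposite strand, and Sphk2 was at 0.544 to 4.05 FPKM. The kit marks strand, but whether the counting used it is not given in the sources used here.

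The REV-ERB genes were lower on average with overlapping groups. Nr1d1, on chromosome 11 from 98767932 to 98775333, was at 26.5, 35.1 and 44.0 FPKM in the Ctrl libraries and at 27.2, 27.4 and 24.2 FPKM in Gsk3sKO. Ctrl replicate 1 lay among the Gsk3sKO libraries, and the other two Ctrl libraries lay above all of them. The log2 difference was -0.38 (standard error 0.19, 95% interval -0.83 to 0.06, unadjusted limma p = 0.0827, exact permutation p = 0.3). Without Ctrl replicate 1 it was -0.56 and had an unadjusted limma p under 0.05, the only alternative of 12 in which Nr1d1 was called, and without Ctrl replicate 3 it was -0.21. Nr1d1 shares 263 of 3077 exonic bases with Thra on the opposite strand, and Thra, at 381 to 541 FPKM, had a log2 difference of 0.05 (standard error 0.18). Nr1d2, on chromosome 14, was at 17.8, 22.1 and 23.2 FPKM in the Ctrl libraries and at 20.7, 18.2 and 16.4 FPKM in Gsk3sKO (log2 difference -0.18, 95% interval -0.57 to 0.21, limma p = 0.324, exact permutation p = 0.3).

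The activators Arntl and Clock had the smallest differences beside Cry1. Arntl, on chromosome 7 from 113207465 to 113314126, was at 22.2, 13.7 and 15.0 FPKM in the Ctrl libraries and at 16.2, 18.1 and 14.8 FPKM in Gsk3sKO. One library, Ctrl replicate 1, stood above the other 5, which lay between 13.7 and 18.1 FPKM. The log2 difference was -0.02 (95% interval -0.50 to 0.45, limma p = 0.912, exact permutation p = 0.9), and 0.18 without Ctrl replicate 1. Clock, on chromosome 5 from 76209868 to 76304792, was at 16.9, 14.7 and 16.8 FPKM in the Ctrl libraries and at 17.5, 13.2 and 15.2 FPKM in Gsk3sKO (log2 difference -0.08, 95% interval -0.46 to 0.31, limma p = 0.652, exact permutation p = 0.7). The highest and the lowest Clock value were both in Gsk3sKO.

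**Figure D2:**
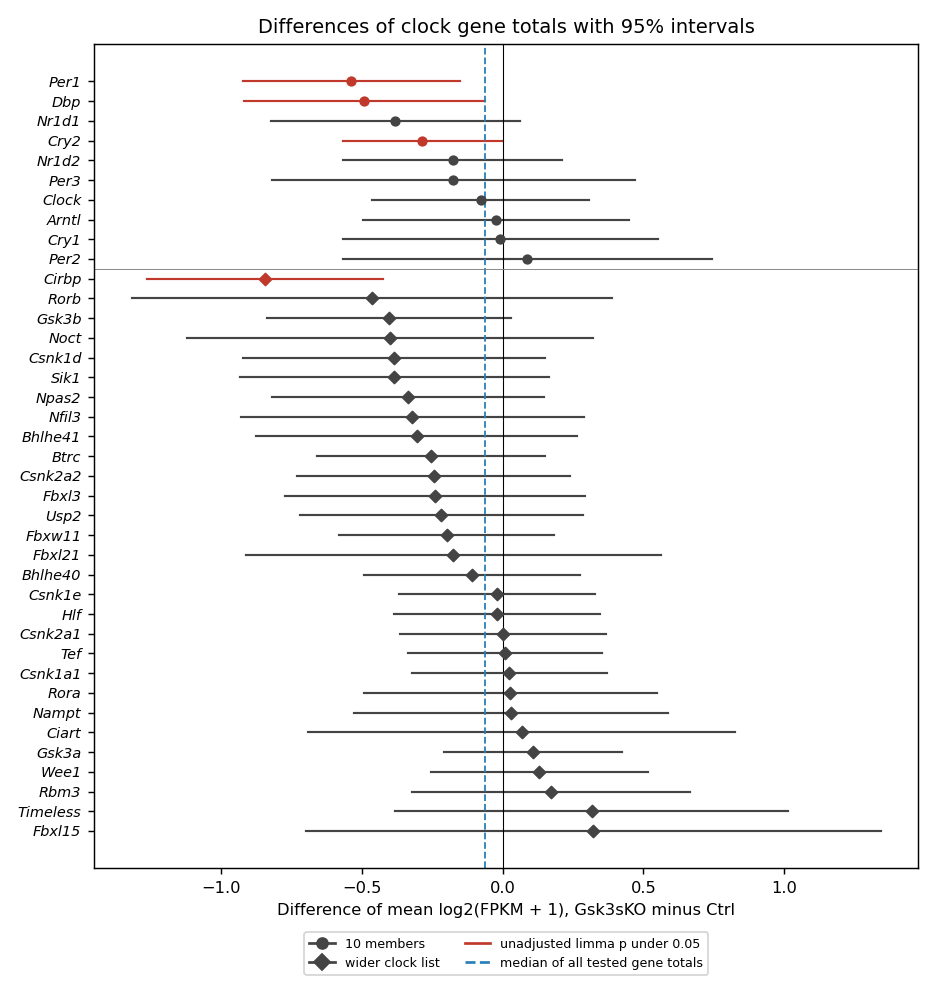
Difference of mean log2(FPKM + 1), Gsk3sKO minus Ctrl, with its 95% limma interval for the 10 members (circles) and the 29 tested genes of the wider clock list (diamonds), red where the unadjusted limma p was under 0.05; the dashed line is the median of all tested gene totals (-0.06). Per1, Dbp, Cry2 and Cirbp are red, and all other intervals cross 0.

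At the transcript level, 1 of the 16 tested member transcripts had an unadjusted limma p under 0.05, where 5.56% of 21584 tested transcripts did, 3.75% lower and 1.81% higher, and 0 had an adjusted p under 0.05, where 0% did. It was the Dbp transcript ENSMUST00000080885 (log2 difference -0.49, standard error 0.20, unadjusted limma p = 0.0493, adjusted p = 0.842, exact permutation p = 0.1). The log2 difference was below 0 for 10 of the 16, where 55.2% of all tested transcripts were below 0, and the groups did not overlap for 2, both lower, where 11.2% of all did not overlap and 6.96% did so with Gsk3sKO lower. The main Cry2 transcript ENSMUST00000090559, 96.8% to 99.7% of the Cry2 gene total, was at 44.0, 42.4 and 45.2 FPKM in the Ctrl libraries and at 36.9, 35.99 and 33.4 FPKM in Gsk3sKO, without overlap (log2 difference -0.30, standard error 0.12, unadjusted limma p = 0.0503, exact permutation p = 0.1). Arntl, Cry1 and Dbp have 1 listed transcript each, and the most abundant transcripts of Per2 (ENSMUST00000069620), Nr1d1 (ENSMUST00000064941) and Nr1d2 (ENSMUST00000090543) carried at least 92.8% of their gene total in every library, so the gene totals above are in effect theirs. For Per3, ENSMUST00000103204 carried 75.1% to 100% and had a log2 difference of 0.01 (standard error 0.27), against -0.18 for the gene total.

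The Per1 gene total was called lower, and none of its 5 tested transcripts was. Its most abundant transcript, ENSMUST00000021271, which starts at 69098948 just after the printed E-box sequence, was at 16.0, 9.33 and 1.36 FPKM in the Ctrl libraries and at 7.57, 9.14 and 11.98 FPKM in Gsk3sKO (log2 difference 0.48, standard error 0.72, unadjusted limma p = 0.526, exact permutation p = 0.9). ENSMUST00000102605, which starts at 69100522 and lies entirely within the exons of the first (4537 of 4537 bases), had 5.30 and 21.7 FPKM in Ctrl replicates 2 and 3, and its value was 0 in Ctrl replicate 1 and throughout Gsk3sKO (log2 difference -2.39, standard error 1.10, unadjusted limma p = 0.0706, exact permutation p = 0.4). Its difference in mean FPKM was larger than that of the gene total, and without Ctrl replicate 1 its log2 difference was -3.58 and passed the unadjusted threshold. In Ctrl replicate 3 it took 88.4% of the Per1 gene total and ENSMUST00000021271 took 5.53%. ENSMUST00000166748, which shares 99.2% of its bases with ENSMUST00000021271, was at 6.30 FPKM in Gsk3sKO replicate 1 and at 0.659 FPKM or less in each other library. The 2 transcripts with upstream starts together made up 10.7% to 85.7% of the Per1 gene total in Ctrl and 61.0% to 87.3% in Gsk3sKO, so the shares overlapped. ENSMUST00000021271, ENSMUST00000102605 and ENSMUST00000166748 each share at least 97.1% of their bases with one another, so the division of reads between them is an estimate of the assembler. ENSMUST00000101004 shares 73.9% of its bases with ENSMUST00000021271. The gene total is the firmer measure, but as a sum of values per length it also depends on the division. ENSMUST00000132462, 496 bases long, made up 14.3% of it in Ctrl replicate 1, 12.7% in Gsk3sKO replicate 2 and 14.9% in Gsk3sKO replicate 3. In each other library its share was at most 0.243%.

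Clock showed the same kind of division without a difference in its total. ENSMUST00000202122 was at 11.4, 3.35 and 10.05 FPKM in the Ctrl libraries and at 12.2, 2.04 and 2.79 FPKM in Gsk3sKO, and ENSMUST00000075159 was at 0.415, 6.31 and 0.730 FPKM in the Ctrl libraries and at 1.05, 6.11 and 5.84 FPKM in Gsk3sKO. Libraries high in one were low in the other, in both groups. All 5508 bases of ENSMUST00000202122 lie within the exons of ENSMUST00000075159. Their coding lengths are 2562 and 2565 bases. The third tested transcript, ENSMUST00000202651, stayed between 3.23 and 5.44 FPKM in all 6 libraries.

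**Figure D3:**
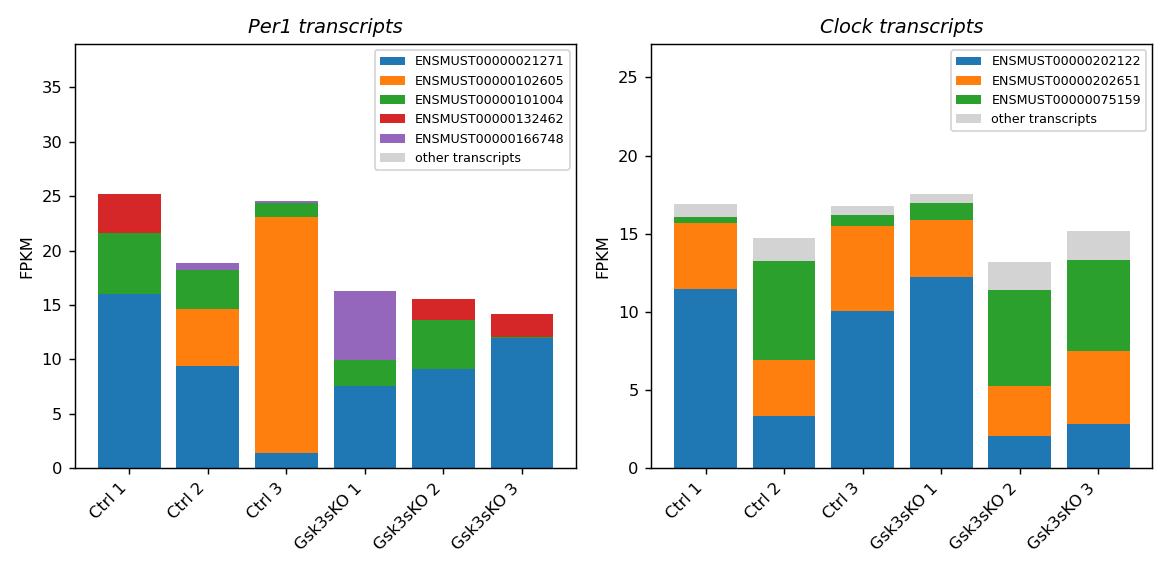
Stacked bars of the FPKM of each tested transcript of Per1 (left) and Clock (right) in each library, with untested transcripts in light grey. The total height of Per1 is lower in the 3 Gsk3sKO libraries while its make-up varies between libraries of the same group, and in Clock ENSMUST00000202122 and ENSMUST00000075159 trade places at a similar height.

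The other genes of the pathway were counted from a list of 30 genes, of which 29 passed the filter. At an unadjusted limma p under 0.05, 1 of the 29 was lower, 0 were higher and 28 were not called, beside the 6.56% of all gene totals. An adjusted p under 0.05 was reached by 0 of the 29 and by 0.0466% of all gene totals. The log2 difference was below 0 for 18 of the 29 and for 58.9% of all gene totals. Its median was -0.18 over the list, beside -0.06 over all gene totals. The called gene was Cirbp, a cold-inducible RNA-binding protein that acts on clock transcripts. It was at 38.2, 36.01 and 28.7 FPKM in the Ctrl libraries and at 19.4, 15.2 and 21.5 FPKM in Gsk3sKO, lower by 45.5% with no overlap (log2 difference -0.85, standard error 0.18, unadjusted limma p = 0.00154, adjusted p = 0.407, exact permutation p = 0.1), and it was called in each of the 12 alternative settings. Rbm3, the related cold-inducible protein, was at 22.9 to 38.3 FPKM in the Ctrl libraries and at 33.0 to 41.2 FPKM in Gsk3sKO (log2 difference 0.17, standard error 0.22). The groups did not overlap for 3 of the 29 genes, all 3 lower, where 12% of all gene totals did not overlap and 8.3% did so with Gsk3sKO lower. Beside Cirbp these were Btrc, a ubiquitin ligase subunit for the PER proteins, and Sik1, a kinase induced by light and activity. The log2 differences of Btrc and Sik1, -0.26 and -0.39, did not pass the test (unadjusted limma p = 0.186 and 0.145, exact permutation p = 0.1 for each). Npas2, which can stand in for Clock in the forebrain, had a log2 difference of -0.34 (standard error 0.21). Tef and Hlf, which bind the same D-boxes as Dbp, were at 57.4 to 77.7 FPKM and at 22.3 to 29.8 FPKM over all libraries, with log2 differences of 0.01 and -0.02 (standard errors 0.15 and 0.16), against -0.49 for Dbp. The difference between Dbp and its relatives was not tested. Arntl2 did not pass the filter, at no more than 1.13 FPKM.

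The targeted kinase itself is part of this list. The Gsk3b gene total was 35.6, 53.8 and 56.5 FPKM in Ctrl and 36.9, 37.0 and 33.6 FPKM in Gsk3sKO, and Ctrl replicate 1 lay at the level of the Gsk3sKO libraries (log2 difference -0.40, standard error 0.19, unadjusted limma p = 0.0648, exact permutation p = 0.3). Without Ctrl replicate 1 the log2 difference was -0.61 and passed the unadjusted threshold, the only 1 of 12 alternatives to do so, while leaving out Ctrl replicate 2 gave -0.32 and leaving out Ctrl replicate 3 gave -0.28. The study judged the knockout by staining for GSK3β protein, which was absent from most infected Flag-Cas9 neurons. The RNA level of Gsk3b does not measure that protein. Gsk3a, the paralog of Gsk3b, had a log2 difference of 0.11 (standard error 0.14). Of the casein kinases that phosphorylate the PER proteins, Csnk1d was at 18.2 to 23.9 FPKM in the Ctrl libraries and at 11.95 to 22.3 FPKM in Gsk3sKO, and Csnk1e was at 38.0 to 39.6 FPKM and 32.7 to 45.2 FPKM.

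Some clock genes had their extreme value in Ctrl replicate 1, and the genes named for this were picked after their values were seen. Over all 10 members Ctrl replicate 1 was the lowest Ctrl library for 5 and the highest for 3, and over all tested gene totals it was the lowest for 46.9% and the highest for 30.6%, so the members' shares were near those of all genes. Ctrl replicate 2 was the lowest Ctrl library for the other 5 members (25.4% of all gene totals). Ciart, a repressor of CLOCK and BMAL1, was at 4.47 FPKM in Ctrl replicate 1 and at 10.3 and 12.1 FPKM in Ctrl replicates 2 and 3. Per2, Per3, Nr1d1 and Nr1d2 were likewise lowest in Ctrl replicate 1 among the Ctrl libraries. Arntl, Npas2 and Nfil3, which the REV-ERB receptors repress, were highest there of all 6 libraries, Npas2 at 20.8 FPKM against at most 15.4 FPKM and Nfil3 at 8.84 FPKM against at most 5.18 FPKM. Not all members kept to this contrast. Cry1 was the lowest of all 6 libraries there (4.44 FPKM), Per1 was the highest of all 6 (25.2 FPKM), and Clock was the highest Ctrl library. Dbp and Cry2 in Ctrl replicate 1 lay between the other Ctrl libraries. Genes outside the loop were also lowest in Ctrl replicate 1 among the Ctrl libraries, Drd2 at 1.58 FPKM against 6.02 and 14.1 FPKM, Gad1 at 95.7 FPKM against 237 and 137 FPKM, Rbm3 at 22.9 FPKM against 38.1 and 38.3 FPKM, and the endothelial sum at 16.2 FPKM. The ratio of Nr1d1 to Arntl FPKM was 1.19 in Ctrl replicate 1, 2.57 and 2.92 in the other Ctrl libraries, and 1.68, 1.51 and 1.63 in Gsk3sKO. Among the Ctrl libraries the highest value was 2.71 times the lowest for Ciart, 2.12 times for Per3 and 1.897 times for Per2, where the median over gene totals with a mean of 5 to 10 FPKM was 1.48 times. In Gsk3sKO the same ratios were 1.43, 1.25 and 1.73, beside a median of 1.57. In Ctrl the members fell on both sides of the median of 1.45 over all tested gene totals above 0 in every library. The Ctrl ratio was 1.07 for Cry2, 1.15 for Dbp and Clock, 1.31 for Nr1d2 and 1.33 for Per1, below that median. It was 1.63 for Arntl, 1.66 for Nr1d1 and 1.70 for Cry1, above the median as for Per2 and Per3. Of the calls above, those of Per1 and Cirbp also held without Ctrl replicate 1, and those of Dbp and Cry2 did not, though their log2 differences stayed at -0.50 and -0.28.

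**Figure D4:**
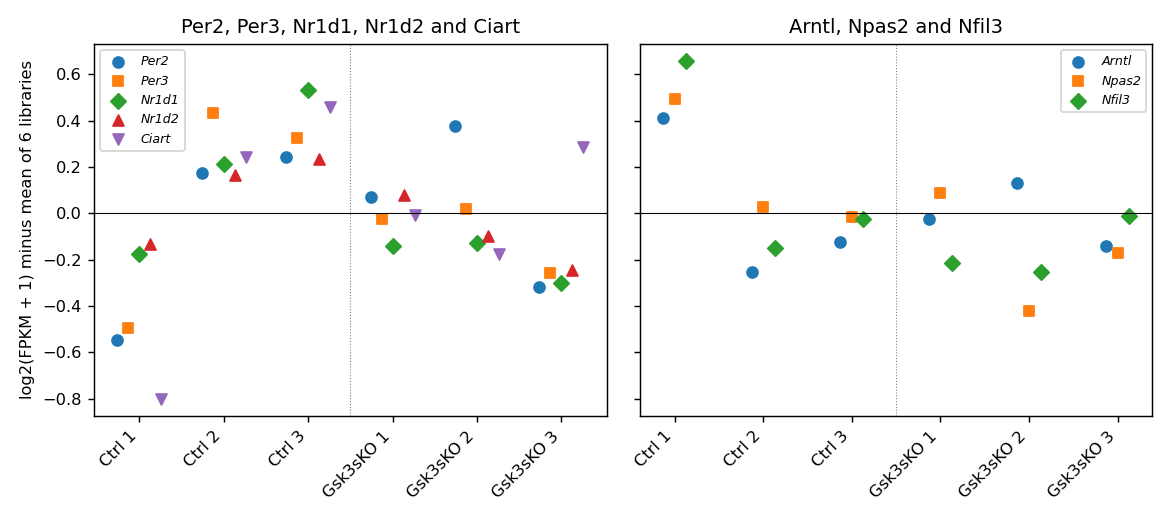
Deviation of log2(FPKM + 1) from the mean of the 6 libraries for Per2, Per3, Nr1d1, Nr1d2 and Ciart (left) and for Arntl, Npas2 and Nfil3 (right), with 1 point per gene and library. In Ctrl replicate 1 all 5 genes on the left lie below 0 and all 3 on the right lie at the top of the plot, while Ctrl replicates 2 and 3 have all 5 genes on the left above 0. The genes drawn were picked after their values were seen, and the members Per1, Cry1, Cry2, Clock and Dbp are not drawn.

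The cell types in the libraries were compared through marker lists, since clock genes are expressed in many cell types and fewer cells of a type cannot be told apart from less RNA per cell. Drd2, which defines the D2 neurons, was at 1.58, 6.02 and 14.1 FPKM in the Ctrl libraries and at 8.32, 5.96 and 7.28 FPKM in Gsk3sKO, and the neuronal marker Rbfox3 was at 90.7 to 102 FPKM in all libraries. Rpl22, the gene of the tagged ribosomal protein, was at 89.6 FPKM in Gsk3sKO replicate 2 and at 36.6 to 47.7 FPKM in each other library. Of the oligodendrocyte markers Mbp, Mog, Mag, Mobp and Cnp, 3 of 5 (Mog, Mag and Cnp) were lower in Gsk3sKO at an unadjusted limma p under 0.05, Mog being listed at 0 in 2 of the Gsk3sKO libraries. Mbp and Mobp, which had the highest levels of this list, were not called. Their log2 differences were -0.15 and 0.03 (standard errors 0.42 and 0.19). The summed level of the list was 61.9 to 101 FPKM in Ctrl and 54.8 to 87.1 FPKM in Gsk3sKO. The microglia list had 1 of 5 tested genes lower (C1qa), with a summed level of 14.2 to 25.3 FPKM in Ctrl and 12.4 to 15.4 FPKM in Gsk3sKO. Of the excitatory neuron markers 1 of 6 was lower (Tbr1), with sums of 1550 to 1801 FPKM and 1354 to 1640 FPKM. None of the inhibitory neuron (3), astrocyte (6) or endothelial (6) markers was called by limma at an unadjusted p under 0.05, and their sums overlapped between the groups. These counts stand beside the 5.2% of all gene totals called lower. The call of Mog held in each of its 11 alternatives, and calls were lost for Tbr1 in 4 of 12, Cnp in 4 of 12, Mag in 3 of 11 and C1qa in 2 of 11. The part of these markers in the differences of Per1, Dbp and Cry2 was not tested.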

How the data were processed

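RNA bound to tagged ribosomes was sequenced in 3 Ctrl and 3 Gsk3sKO libraries, which were grouped and numbered by the submitters' labels. No library column was set aside (0 unused). The table the authors deposited gives FPKM per transcript. The submitters' processing notes name HISAT2 2.1.0, SAMtools 1.9, StringTie 1.3.4d and GRCm38, without settings in the sources read. The table also holds a fold, a p-value and a q-value of the authors' own comparison, which were not used. Depth was approximated from the steps between low values of 1-transcript genes over 800 bases long, where 12.0% to 25.6% of values under 6 reads came within 0.01 reads of a whole number.

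Gene totals and transcripts whose mean FPKM reached 1 were compared by limma 3.58.1 under R 4.3.3 (lmFit and eBayes, trend on) using log2(FPKM + 1), with no covariates, 2-sided, with Benjamini-Hochberg adjustment over all tested features. Log2 differences on this scale understate the change of low values. The model was tested on simulated data. The alternatives were a pseudocount of 0.1, no filter, a minimum of 5 FPKM, median-ratio rescaling, no moderation of the variances, the replicate number as a block, and each library left out in turn. Positions come from GENCODE M21 (GRCm38), which holds all 30 member transcripts. Named were all members, their most abundant or called transcripts, called genes of the other lists, Gsk3a and Gsk3b. Npas2, Rbm3, Tef, Hlf, Btrc, Sik1, Ciart, Nfil3, Csnk1d, Csnk1e, Rpl22, Mbp, Mobp, Neurod6, P2ry12, Aif1 and overlapping genes are further names, picked with values in view. From the lists, 2 genes are not reported here and were left out of counts and sums. The members and lists were chosen with earlier results of these data known. Python 3.11.15 with pandas 2.3.3 and matplotlib 3.10.9 served for tables and figures.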

Additional observations from a re-analysis of the deposited data

How the results depend on the processing

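With FPKM and 3 libraries a group, differences as large as that of Per1 stayed inside the intervals of most other members. The count of 3 called members was 1 after median-ratio rescaling and 2 under the replicate block and without moderation of the variances, where the Dbp call was lost, and between 1 and 2 with 1 library left out. For transcripts the count of 1 was 2 with a pseudocount of 0.1 and at a minimum of 5 FPKM, 0 without a filter, after rescaling and under the replicate block, and 0 to 2 with 1 library left out. The wider list had 1 to 3 calls in place of 1 with 1 library left out. With 1 library left out, the median log2 difference was -0.29 to -0.10 over gene totals and -0.17 to 0.00462 over transcripts. No pairing by replicate number was seen over gene totals. Deviations from the group means correlated at -0.03, -0.01 and -0.08 between same-numbered libraries and at -0.03 to 0.05 between differently numbered ones. These correlations run over all genes at once, on deviations that add up to 0 within a group, so they cannot exclude pairing. Under the block the standard error of Cry2 rose from 0.124 to 0.147 and its call was lost. That of the Dbp gene total fell from 0.187 to 0.169.

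Of 397 values of single genes and transcripts under alternatives, 24 changed sign, and none of these was past the threshold. After rescaling, Cry1 and Arntl had log2 differences of 0.047 and 0.037 as gene totals, and their transcripts ENSMUST00000020227 and ENSMUST00000047321 of 0.035 and 0.026. With 1 library left out, the gene totals ranged from -0.17 to 0.27 for Per2, from -0.13 to 0.19 for Cry1, from -0.16 to 0.18 for Arntl and from -0.18 to 0.018 for Clock. Among transcripts the ranges were -0.16 to 0.18 for Arntl ENSMUST00000047321, -0.13 to 0.19 for Cry1 ENSMUST00000020227, -0.35 to 1.08 for Per1 ENSMUST00000021271, -1.09 to 0.064 for ENSMUST00000101004, -0.058 to 0.84 for ENSMUST00000132462, -0.16 to 0.27 for Per2 ENSMUST00000069620 and -0.17 to 0.14 for Per3 ENSMUST00000103204. The causes were not tested.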
